A study of Arabidopsis thaliana with 12 samples.

Results

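Of 22746 gene probe sets on the Affymetrix ATH1 array, which covered 13355 genes singly, 13 were paired with exactly 1 nuclear gene whose symbol carries a letter code of the photosystems, their antenna or chlorophyll synthesis. They covered the antenna genes LHCB4.1, LHCB4.2 and LHCB4.3, the photosystem I genes PSAE-1 and PSAN, the photosystem II genes PSBW and PSBY, the tetrapyrrole genes HEMA2 and HEMA3, and CHLI2, CHLM and PORB of the magnesium branch. The 13th, POR (AT4G39920), entered by its letters alone: the gene annotation of assembly TAIR10.1 lists it as PORCINO, the tubulin folding cofactor C. It is therefore no chlorophyll gene, and counts are also given over the other members. Assembly TAIR10.1 holds 53 nuclear genes with such symbols, of which 40 had no single-gene probe set in the probe table used and are not analysed here.

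The seedlings were Arabidopsis thaliana of the Columbia ecotype, given 8 h of light to germinate and then 4 days of darkness on medium with sucrose. The 6 groups were axr2 with 100 nM 24-epibrassinolide (24-eBL, a brassinosteroid), axr2 mock, msg2 with 24-eBL, msg2 mock, wild type with 24-eBL and wild type mock, with 2 arrays each from biological replicates. As background, both mutants carry dominant point mutations that stabilise an Aux/IAA protein, a class of proteins that holds back auxin responses. A point mutation need not alter transcript level, so the arrays give no check of genotype, and the labels name no allele. Whole seedlings were used, and in such bulk RNA fewer cells of a type cannot be told apart from less RNA per cell.

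Photosystems I and II are chlorophyll-protein complexes of the thylakoid membrane, built from subunits of both nuclear and plastid genes and fed with excitation energy by nuclear-encoded antenna proteins. Chlorophyll is made in the plastid from glutamyl-tRNA through a tetrapyrrole path that splits into an iron (heme) and a magnesium branch. In flowering plants the reduction of protochlorophyllide needs light, so dark-grown seedlings store this intermediate together with its reductase and green only once lit. Brassinosteroids are known to help keep seedlings in the dark-grown form.

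Values are log2 signals, and a difference is a log2 difference ± SE from a linear model (limma) over all 12 arrays, with p adjusted by the Benjamini-Hochberg method over all 15025 tested probe sets and called under 0.05. Signals of different probe sets are not on a common scale, so levels are compared within a probe set only. Of the 13 probe sets 12 were tested. HEMA3 was not, because all 12 of its arrays, from 1.17 to 4.75, lay at or below the array's 40th percentile of signal. Of the 12 tested, none had such a dim value on any array. Across the array as a whole axr2 stood apart from wild type: 35.5% of tested probe sets were called between the mock groups and 28.6% between the groups with 24-eBL.

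The photosystem and chlorophyll genes stood highest in axr2 with 24-eBL and, mostly, lowest in wild type with 24-eBL. Of the 12 tested, 10 had their highest group mean of the 6 in axr2 with 24-eBL, where 21.3% of all tested probe sets did. In wild type with 24-eBL 7 of the 12 had their lowest mean, against 16.0% of all tested probe sets. In msg2 with 24-eBL 3 had their lowest mean, where 13.1% of all did. Without PORCINO these highest and lowest counts in axr2 and wild type with 24-eBL were 9 and 7 of 11. The exceptions to the high end were LHCB4.3, highest in wild-type mock, and HEMA2, highest in wild type with 24-eBL. The low end lay in msg2 with 24-eBL for LHCB4.1, LHCB4.2 and LHCB4.3, in axr2 with 24-eBL for HEMA2 and in msg2 mock for PORCINO.

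**Figure D1:**
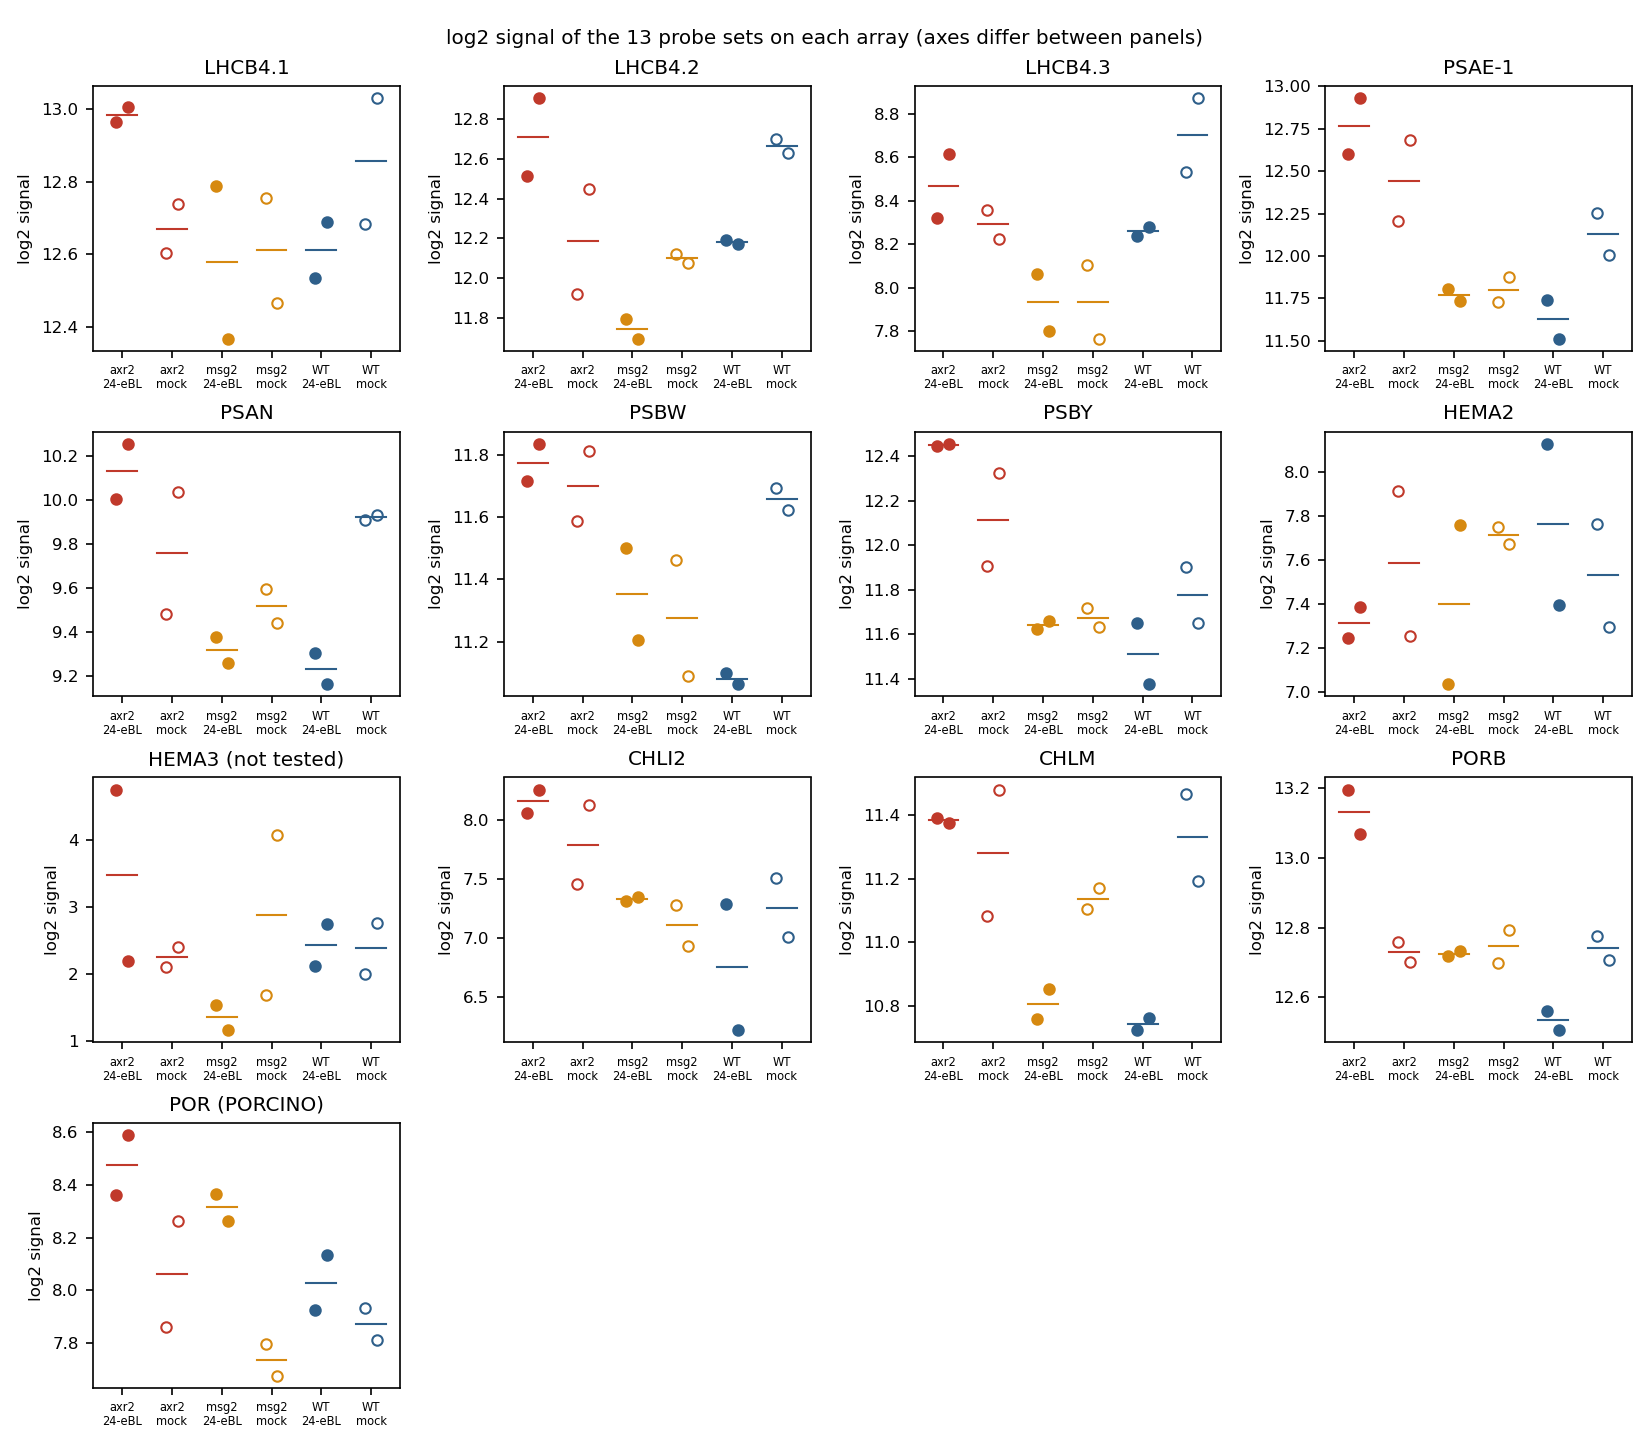
log2 signal (y axis, scaled separately in each panel) of the 13 probe sets in the 6 groups (x axis), with 1 point per array and a bar at the mean of the 2 arrays. Filled points are 24-eBL and open points mock; red is axr2, orange msg2 and blue wild type. PSAE-1, PSAN, PSBW, PSBY, CHLI2 and PORB have both axr2 24-eBL arrays above all wild-type and msg2 arrays, with 24-eBL and in mock.

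The LHCB4 genes encode CP29, a minor antenna protein that links the outer antenna to the photosystem II core. LHCB4.2 had 12.52 and 12.91 in axr2 with 24-eBL, 11.92 and 12.45 in axr2 mock, 11.79 and 11.69 in msg2 with 24-eBL, 12.12 and 12.08 in msg2 mock, 12.19 and 12.17 in wild type with 24-eBL and 12.70 and 12.63 in wild-type mock. Its order between axr2 and wild type thus depended on treatment: with 24-eBL both axr2 arrays were above both wild-type arrays, and without it both were below. The difference from wild type was 0.53 ± 0.17 with 24-eBL (adjusted p = 0.022) and -0.48 ± 0.17 in mock (adjusted p = 0.032). Both calls rested on single arrays. The first was lost without either wild-type array or axr2_BR replicate 2 (adjusted p up to 0.24), with every array centred on its median (adjusted p = 0.051) and without the model's intensity trend (adjusted p = 0.083). The second was lost without either wild-type array or without axr2_mock replicate 1, which gave -0.21 (adjusted p = 0.37).

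LHCB4.1 had 12.96 and 13.01 in axr2 with 24-eBL, 12.60 and 12.74 in axr2 mock, 12.79 and 12.37 in msg2 with 24-eBL, 12.76 and 12.47 in msg2 mock, 12.53 and 12.69 in wild type with 24-eBL and 12.68 and 13.03 in wild-type mock. It was called in none of the 10 comparisons; between axr2 and wild type with 24-eBL it differed by 0.37 (95% interval 0.03 to 0.71, adjusted p = 0.095). LHCB4.3, the most divergent of the CP29 genes, had 8.32 and 8.62 in axr2 with 24-eBL, 8.36 and 8.23 in axr2 mock, 8.06 and 7.80 in msg2 with 24-eBL, 8.11 and 7.77 in msg2 mock, 8.24 and 8.28 in wild type with 24-eBL and 8.53 and 8.87 in wild-type mock. Here it was msg2 that stood lowest, with both mock arrays below those of wild type. Both axr2 mock arrays were below those of wild type too, without a call (-0.41, adjusted p = 0.13). LHCB4.3 was 1.7-fold lower in msg2 mock than in wild-type mock (-0.77 ± 0.20, adjusted p = 0.039), a call lost without any 1 of the 4 arrays compared (adjusted p up to 0.36).

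Both photosystem I genes were higher in axr2 than in wild type under 24-eBL. PSAE-1, a subunit on the stromal side near the ferredoxin docking site, had 12.60 and 12.93 in axr2 with 24-eBL, 12.20 and 12.68 in axr2 mock, 11.80 and 11.73 in msg2 with 24-eBL, 11.73 and 11.87 in msg2 mock, 11.74 and 11.51 in wild type with 24-eBL and 12.255 and 12.004 in wild-type mock. Under 24-eBL it was 2.2-fold higher in axr2 than in wild type (1.14 ± 0.17, adjusted p = 6.4e-05), the smallest adjusted p among the 12 genes in this comparison. PSAN, a lumenal subunit on the plastocyanin side, had 10.003 and 10.255 in axr2 with 24-eBL, 9.48 and 10.04 in axr2 mock, 9.38 and 9.26 in msg2 with 24-eBL, 9.59 and 9.44 in msg2 mock, 9.30 and 9.16 in wild type with 24-eBL and 9.91 and 9.93 in wild-type mock. PSAN was 1.86-fold higher in axr2 than in wild type with 24-eBL (0.90 ± 0.18, adjusted p = 0.0013). Without 24-eBL its 2 axr2 arrays lay on either side of the wild-type arrays (-0.16, adjusted p = 0.53).

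PSBW and PSBY, small nuclear-encoded membrane subunits of photosystem II, were likewise higher in axr2 under 24-eBL. PSBW, which helps hold photosystem II and its antenna together, had 11.71 and 11.84 in axr2 with 24-eBL, 11.59 and 11.81 in axr2 mock, 11.50 and 11.21 in msg2 with 24-eBL, 11.46 and 11.09 in msg2 mock, 11.10 and 11.06 in wild type with 24-eBL and 11.69 and 11.62 in wild-type mock. Of the wild-type arrays those with 24-eBL lay below all axr2 arrays, and the difference there was 0.70 ± 0.16 (adjusted p = 0.0028) against 0.04 in mock (adjusted p = 0.87). PSBY had 12.44 and 12.46 in axr2 with 24-eBL, 11.91 and 12.32 in axr2 mock, 11.62 and 11.66 in msg2 with 24-eBL, 11.72 and 11.63 in msg2 mock, 11.65 and 11.38 in wild type with 24-eBL and 11.90 and 11.65 in wild-type mock. PSBY was 1.91-fold higher in axr2 than in wild type with 24-eBL (0.94 ± 0.16, adjusted p = 0.00022). It was also the only member whose axr2 mock arrays were both above the wild-type mock arrays (0.34 ± 0.16, adjusted p = 0.11), as was the case for 40.3% of all tested probe sets.

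HEMA2 encodes a glutamyl-tRNA reductase, the enzyme at the entry of tetrapyrrole synthesis; in Arabidopsis HEMA2 is the form known from roots and other non-green tissue. It had 7.24 and 7.38 in axr2 with 24-eBL, 7.92 and 7.25 in axr2 mock, 7.03 and 7.76 in msg2 with 24-eBL, 7.75 and 7.67 in msg2 mock, 8.13 and 7.40 in wild type with 24-eBL and 7.76 and 7.29 in wild-type mock. Its replicate arrays differed by up to 0.73 within a group, and it was called in none of the 10 comparisons. It was the one member whose axr2 arrays with 24-eBL lay below those of wild type (-0.45, 95% interval -1.07 to 0.18, adjusted p = 0.29).

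In the magnesium branch CHLI2, CHLM and PORB were all higher in axr2 than in wild type with 24-eBL. CHLI2, the second copy of the ATPase subunit of magnesium chelatase, had 8.06 and 8.26 in axr2 with 24-eBL, 7.45 and 8.12 in axr2 mock, 7.31 and 7.35 in msg2 with 24-eBL, 7.28 and 6.93 in msg2 mock, 7.29 and 6.22 in wild type with 24-eBL and 7.503 and 7.006 in wild-type mock. Its difference, 1.40 ± 0.32 (2.65-fold, adjusted p = 0.0025), leaned on WT_BR replicate 2, the lowest of its 12 arrays; without that array it was 0.87 and no longer called (adjusted p = 0.06). CHLM methylates magnesium protoporphyrin, the step after the chelatase. It had 11.39 and 11.38 in axr2 with 24-eBL, 11.08 and 11.48 in axr2 mock, 10.76 and 10.85 in msg2 with 24-eBL, 11.10 and 11.17 in msg2 mock, 10.72 and 10.76 in wild type with 24-eBL and 11.47 and 11.19 in wild-type mock. With 24-eBL CHLM was low in both wild type and msg2 but not in axr2, and axr2 exceeded wild type by 0.64 ± 0.16 (adjusted p = 0.0046).

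PORB is a light-dependent protochlorophyllide oxidoreductase, which in darkness waits bound to its substrate. It had 13.20 and 13.07 in axr2 with 24-eBL, 12.76 and 12.70 in axr2 mock, 12.72 and 12.73 in msg2 with 24-eBL, 12.70 and 12.79 in msg2 mock, 12.56 and 12.50 in wild type with 24-eBL and 12.77 and 12.71 in wild-type mock. The 3 mock groups and msg2 with 24-eBL lay within 12.70 to 12.79, with axr2 with 24-eBL above that range and wild type with 24-eBL below it. PORB was 1.52-fold higher in axr2 than in wild type with 24-eBL (0.60 ± 0.12, adjusted p = 0.0013), against a difference of -0.01 in mock (95% interval -0.27 to 0.25).

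PORCINO, which helps fold tubulin, had 8.36 and 8.59 in axr2 with 24-eBL, 7.86 and 8.26 in axr2 mock, 8.37 and 8.26 in msg2 with 24-eBL, 7.80 and 7.68 in msg2 mock, 7.92 and 8.13 in wild type with 24-eBL and 7.93 and 7.81 in wild-type mock. Unlike the other 11 it was called in the 24-eBL response averaged over the 3 genotypes (0.38 ± 0.12, adjusted p = 0.047). That call was kept only without WT_BR replicate 1 or axr2_mock replicate 2 and was lost without any other single array (adjusted p up to 0.13). The average response called 8.71% of all tested probe sets, and none of the 11 photosystem and chlorophyll genes, of which 1, CHLM, had an unadjusted p under 0.05 in the limma fit, where 21.2% of all did. Without axr2_mock replicate 1 CHLM was called lower (-0.34, adjusted p = 0.02) and PORCINO was not called.

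Taken as a group, axr2 against wild type with 24-eBL was the comparison in which most of these genes were called. Of 12 tested, 8 were higher and 0 lower (8 of 11 without PORCINO), where 14.6% of all tested probe sets were called higher and 14.0% lower. The 8 were LHCB4.2, PSAE-1, PSAN, PSBW, PSBY, CHLI2, CHLM and PORB. The median difference over the 12 was 0.62, from -0.45 to 1.40, beside a median of 0.02 over all tested probe sets. In 11 of the 12 both axr2 arrays exceeded both wild-type arrays, as in 33.0% of all tested probe sets, and in HEMA2 both were below, as in 30.1%. When any 1 array was left out 6 to 8 genes were called, and PSAE-1, PSAN, PSBW, PSBY, CHLM and PORB kept their calls in all 12 such fits.

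Without 24-eBL the same genotypes differed in 1 of the 12 genes, LHCB4.2, which was lower in axr2, although 20.5% of all tested probe sets were called higher and 15.0% lower there. That split depends on scaling: 3078 higher and 2251 lower became 1772 and 3369 once each array was centred on its median. The median difference over the 12 was 0.01, from -0.48 to 0.53. In this comparison the median of all tested probe sets was 0.13; after centring, the 11 photosystem and chlorophyll genes had a median of -0.23 in place of -0.01, and LHCB4.3 was called lower as well (-0.63, adjusted p = 0.026). Without axr2_mock replicate 1, PSAE-1 and PSBY were instead called higher (0.55 each, adjusted p = 0.029 and 0.023).

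**Figure D2:**
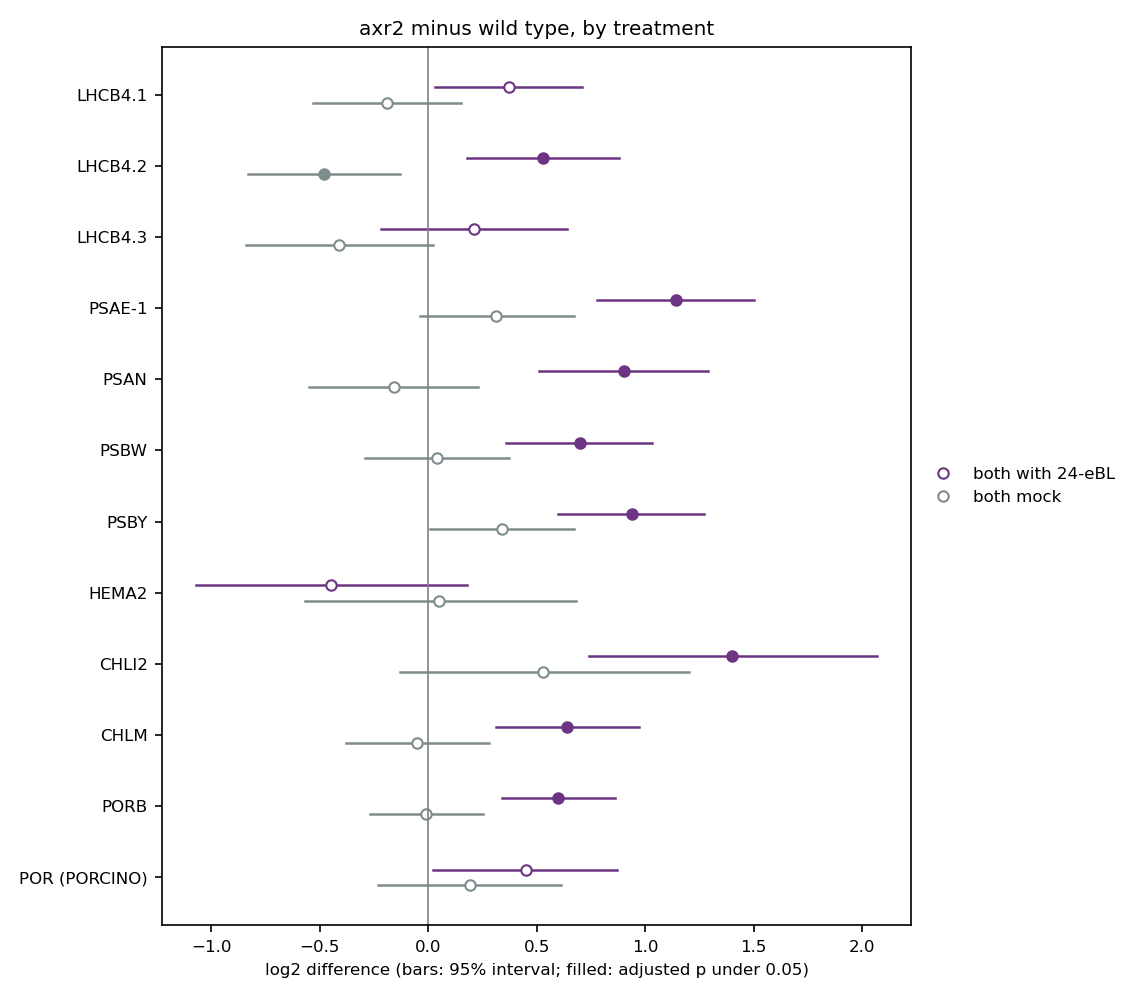
log2 difference of axr2 minus wild type (x axis) for the 12 tested probe sets (y axis), with both genotypes on 24-eBL in purple and both mock in grey. Points are limma estimates, bars their 95% intervals, and filled points were called at adjusted p under 0.05. With 24-eBL 8 points are filled, all right of 0; in mock only LHCB4.2 is filled, left of 0.

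The response to 24-eBL itself was mostly below 0 in wild type and mostly above 0 in axr2, and few of these differences were called. In wild type 3 of 12 genes fell and 0 rose, PSAN by 0.69 ± 0.18, CHLM by 0.59 ± 0.16 and PSBW by 0.58 ± 0.16 (adjusted p = 0.038, 0.037 and 0.042), where 2.47% of all tested probe sets fell and 2.20% rose. The median over the 12 was -0.46, beside 0.04 over all tested probe sets. In 7 of the 12 both treated arrays were below both mock arrays, as in 20.6% of all tested probe sets. All 3 calls were lost without any 1 of the 4 wild-type arrays (adjusted p up to 0.34) and without the intensity trend (adjusted p up to 0.15). That of PSBW was also lost with quantile normalisation, no filter or a replicate block (adjusted p = 0.052, 0.061 and 0.051). PSAN and CHLM were also lost without either msg2 mock array and PSBW without either axr2 24-eBL array, while the differences themselves stayed between -0.45 and -0.76. The wild-type arrays with 24-eBL enter both this response and the comparison with axr2 above, so the 2 are not separate evidence.

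In axr2 none of the 12 genes was called, where 2.41% of all tested probe sets were; 3, LHCB4.2, PSBY and PORB, had an unadjusted limma p under 0.05, as 15.5% of all did. The median response was 0.33, with 11 of 12 above 0, beside a median of -0.03 and 46.2% above 0 over all tested probe sets. LHCB4.2 changed by 0.53 ± 0.17 (adjusted p = 0.11) and PORB by 0.40 ± 0.12 (adjusted p = 0.10). PORB was called with arrays centred on their medians (0.53, adjusted p = 0.039), and LHCB4.2 without axr2_mock replicate 2 (0.79, adjusted p = 0.015). Without axr2_mock replicate 1, in contrast, LHCB4.2 was at 0.26 (adjusted p = 0.57). The other responses leaned on that array too: the median of the 12 was then 0.11, with 10 above 0 and 1 at an unadjusted p under 0.05. PSAE-1 was at 0.08, PSAN at 0.09, PSBY at 0.12, CHLI2 at 0.03 and CHLM at -0.10, while PORB kept 0.43.

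In msg2 none of the 12 was called either, where 3.92% of all tested probe sets were, and 3 had an unadjusted limma p under 0.05, as 15.5% of all did. The median response was -0.03, from -0.36 for LHCB4.2 to 0.58 for PORCINO. Of the 11 photosystem and chlorophyll genes 2 were above 0, or 7 with arrays centred on their medians, so no direction is given for msg2.

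**Figure D3:**
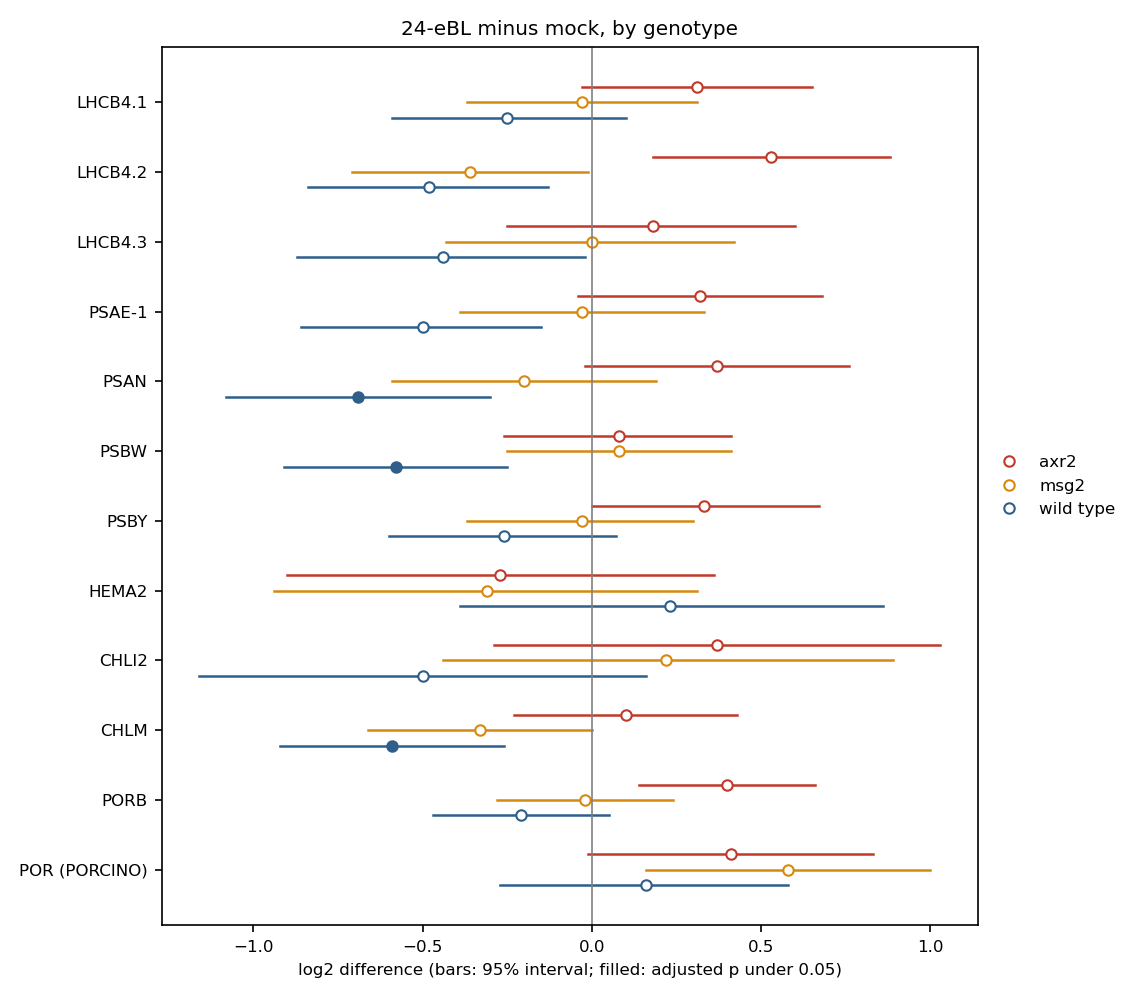
log2 difference of 24-eBL minus mock (x axis) for the 12 tested probe sets (y axis), in axr2 (red), msg2 (orange) and wild type (blue). Points are limma estimates, bars their 95% intervals, and filled points were called at adjusted p under 0.05. For 10 of the 12 the axr2 point lies right of 0 and the wild-type point left of it; only PSAN, PSBW and CHLM in wild type are filled.

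The difference between these responses was tested directly. The axr2 response exceeded that of wild type in LHCB4.2 (1.01 ± 0.24, adjusted p = 0.026) and PSAN (1.06 ± 0.26, adjusted p = 0.036), 2 of 12 genes where 1.11% of all tested probe sets had such a call and 1.49% the opposite one (167 and 224 probe sets, or 303 and 141 after centring). LHCB4.2 changed by 0.53 in axr2 and -0.48 in wild type, and PSAN by 0.37 in axr2 and -0.69 in wild type. The other 10 were not called: their differences ran from -0.50 for HEMA2 to 0.87 for CHLI2, and PSAE-1 (0.82) and PORB (0.61) had adjusted p = 0.078 and 0.074. The median over the 12 was 0.64, and 9 had an unadjusted p under 0.05, as 16.9% of all tested probe sets did. Leaving out any 1 wild-type array, axr2_BR replicate 2 or axr2_mock replicate 1 ended both calls, and leaving out either msg2 mock array ended that of PSAN (adjusted p up to 0.13 for LHCB4.2 and 0.14 for PSAN). With arrays centred on their medians PSAE-1 and PORB were called as well.

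Between the msg2 and wild-type responses none of the 12 genes was called, where 0.213% of all tested probe sets were called, and 1 had an unadjusted limma p under 0.05, as 9.21% of all did. The median difference was 0.34, from -0.55 to 0.72, beside -0.04 over all tested probe sets. It was above 0 in 11 of the 12, as was that of axr2, where 45.2% of all tested probe sets were above 0 for msg2. The same wild-type arrays enter both differences, so the 2 are not separate evidence. Between msg2 and wild type with 24-eBL none of the 12 was called either, with 1 at an unadjusted p under 0.05 (20.7% of all tested probe sets) and 7.51% of all called. There the median was 0.11. PSBW, CHLI2, PORB and PORCINO, 4 of 12, had both msg2 arrays above both wild-type arrays, as 23.9% of all tested probe sets did, and LHCB4.2 and LHCB4.3 had both msg2 arrays below both wild-type arrays (-0.44 and -0.33, adjusted p = 0.13 and 0.39), as in 25.6% of all tested probe sets. In mock LHCB4.3 was the only gene of the 12 called between msg2 and wild type, where 4.12% of all tested probe sets were. LHCB4.2 missed the threshold (-0.57, adjusted p = 0.063). The median of the 12 in mock was -0.22, beside 0.05 over all tested probe sets. There 10 of the 12 were below 0 and 2 above, where 55.5% of all tested probe sets were above 0. An unadjusted limma p under 0.05 was found in 4 of the 12, where 18% of all tested probe sets had one.

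The 2 axr2 mock arrays had the widest median gap between replicates in these genes of the 6 groups. Axr2_mock replicate 2 was the higher in 8 of the 11 photosystem and chlorophyll genes, with a median gap (replicate 2 minus replicate 1) of 0.40, beside a median of -0.03 over all tested probe sets. In axr2 with 24-eBL replicate 2 was the higher in 9 of the 11, with a median gap of 0.14. In the 5 groups other than axr2 mock the median gap of the 11 genes between replicates lay between -0.08 and 0.14.

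Other nuclear genes of greening were followed in lists. Each list holds only the genes with a single-gene probe set in the probe table used, a part of those planned. Of 6 tetrapyrrole genes 5 were higher in axr2 than in wild type with 24-eBL and 0 lower, with a median of 0.93, where 14.6% of all tested probe sets were called higher. HEME1, a uroporphyrinogen decarboxylase, was 2.72-fold higher (1.45 ± 0.21, adjusted p = 4.5e-05), HEMB1, an aminolevulinate dehydratase, 1.92-fold (adjusted p = 6e-05), GSA1, which makes aminolevulinate, 1.9-fold (adjusted p = 0.00012) and NOL, a chlorophyll b reductase, 2.13-fold (adjusted p = 0.00051). SIRB, of the side path to siroheme, was not called (0.13). In mock 2 of 6, HEME1 and GSA1, were called higher in axr2 than in wild type (0.67 and 0.43, adjusted p = 0.018 and 0.03), where 20.5% of all tested probe sets were. With centred arrays 0 of 6 were called in mock, and with quantile normalisation 3 of 6, HEMB1 being added.

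Of 5 electron transport and carbon fixation genes 3 were higher in axr2 than in wild type in both treatments, beside 14.6% of all tested probe sets with 24-eBL and 20.5% in mock. RCA, the rubisco activase, differed by 0.81 with 24-eBL and 0.54 in mock (adjusted p = 0.00028 and 0.0065), ATPC1, a subunit of the chloroplast ATP synthase, by 0.80 and 0.52 (adjusted p = 0.0011 and 0.018) and SBPASE, of the Calvin cycle, by 0.62 and 0.56 (adjusted p = 0.01 and 0.016). With arrays centred on their medians these 3 kept their calls with 24-eBL, and 0 of 5 were called in mock. With quantile normalisation all 3 kept their calls in both treatments. Of 5 photosystem assembly genes 4 were higher with 24-eBL, HCF101 (0.86, adjusted p = 0.0023), LPA2 (0.63, adjusted p = 0.021), PSB27 (0.45, adjusted p = 0.025) and PAM68 (0.70, adjusted p = 0.029), and 1, LPA2, in mock (0.52, adjusted p = 0.049). The 1 of 5 in mock is no larger a share than the 20.5% of all tested probe sets called higher there, while 14.6% were with 24-eBL. With centred arrays the same 4 were called with 24-eBL, while in mock LPA2 was not called and PSB27 was called lower. With quantile normalisation the same 4 were called with 24-eBL and 0 in mock. No gene of the 3 lists was called in the 24-eBL response of any genotype. At an unadjusted limma p under 0.05 there were 3 of 6, 1 of 5 and 2 of 5 in axr2, 0 of 6, 1 of 5 and 0 of 5 in msg2, and 2 of 6, 0 of 5 and 1 of 5 in wild type. Of all tested probe sets 15.5% in axr2, 15.5% in msg2 and 16.4% in wild type had such a p. With centred arrays GSA1 and HEMB1 were called higher in axr2 with 24-eBL than in axr2 mock. The light regulator HYH was dim on 11 of 12 arrays and was not tested.

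**Figure D4:**
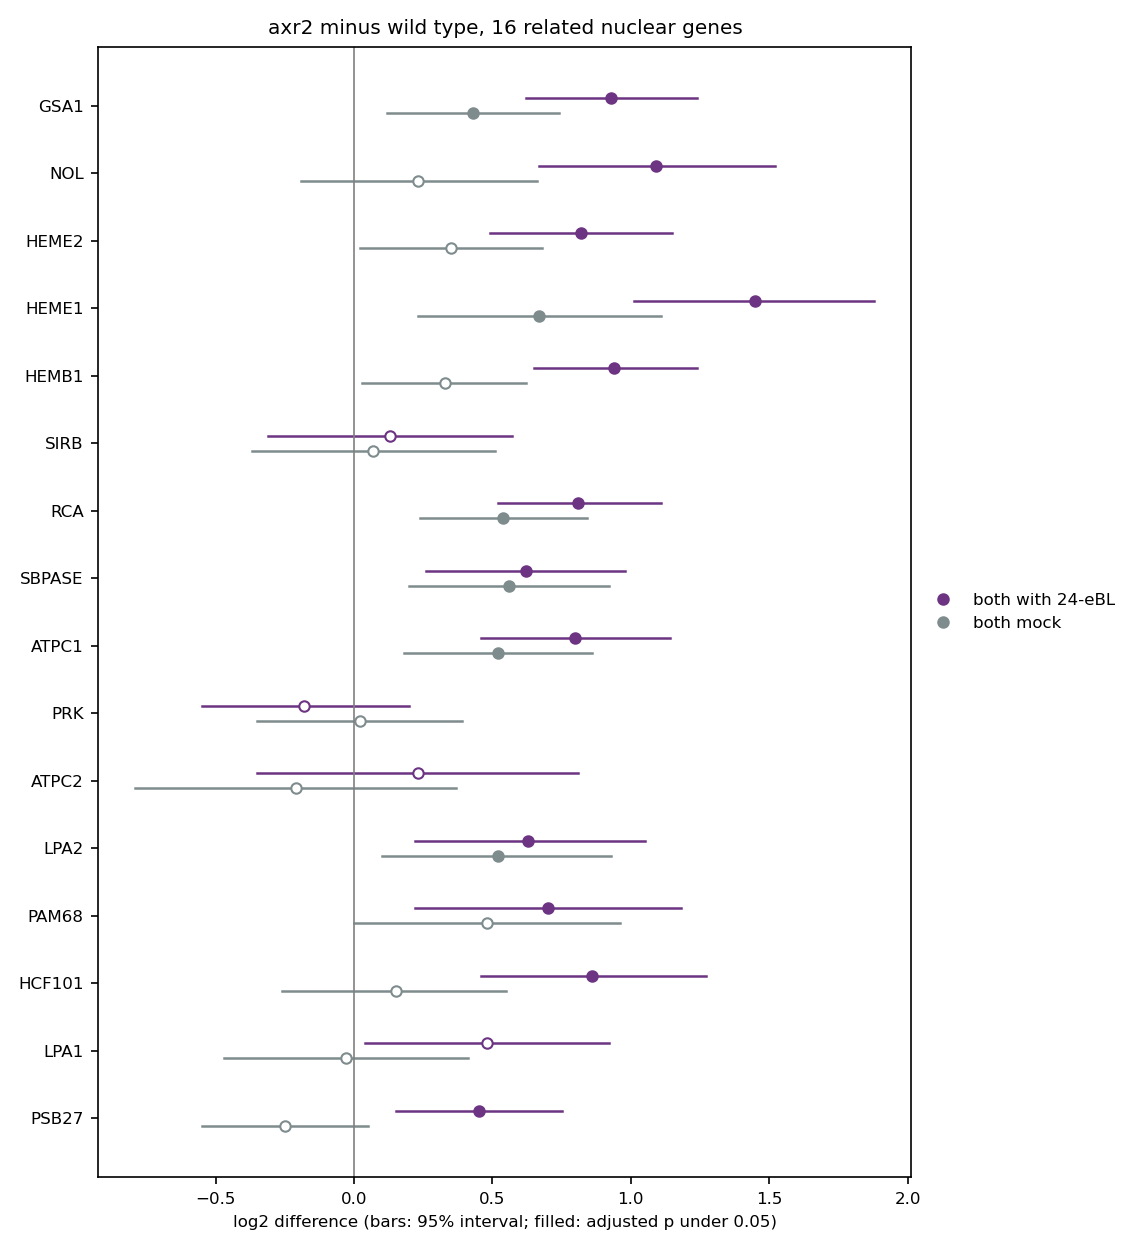
log2 difference of axr2 minus wild type (x axis) for 16 related nuclear genes (y axis: 6 of tetrapyrrole metabolism, 5 of electron transport and carbon fixation, 5 of photosystem assembly), with both genotypes on 24-eBL in purple and both mock in grey. Points are limma estimates, bars their 95% intervals, and filled points were called at adjusted p under 0.05. With 24-eBL 12 points are filled and in mock 6, all right of 0.

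Plastid-encoded subunits of the same photosystems were set beside them. Of 19 tested plastid psa and psb probe sets 12 were higher and 0 lower in axr2 than in wild type with 24-eBL, with a median of 1.003, where 14.6% of all tested probe sets were called higher and 14.0% lower; the 12 were psaA, psaB, psaI, psaJ, psbA, psbB, psbC, psbD, psbH, psbI, psbK and psbZ, also with arrays centred on their medians. In mock 1 of 19 was higher, psaB, with a median of 0.27, a smaller share than the 20.5% of all tested probe sets. With centred arrays 0 were called in mock, and with quantile normalisation psaB alone. None of the 19 was called in the difference between the axr2 and wild-type responses (1, psbI, with centred arrays). Of all tested probe sets 1.11% were called higher there and 1.49% lower. The median over the 19 was 0.68, beside -0.07 over all tested probe sets. An unadjusted limma p under 0.05 was found in 4 of 19 (21.1%), near the 16.9% of all tested probe sets. Whether nuclear and plastid genes differed was not tested.

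Some markers of seedling parts and of the seed also differed between groups. These marker lists, too, hold only genes with a single-gene probe set, a part of those planned. OLEO3, a seed oleosin, had 10.69 and 10.57 in axr2 with 24-eBL against 11.65 and 11.65 in wild type with 24-eBL (-1.02 ± 0.15, adjusted p = 6.4e-05). It was the only 1 of 2 seed markers called lower there, where 14.0% of all tested probe sets were. LEA4-5, the other of the 2, was not called there (-0.67, adjusted p = 0.068). The summed linear signal of both seed markers came mostly from OLEO3. That sum was 1588 to 1703 in axr2 with 24-eBL against 3307 to 3309 in wild type with 24-eBL. In mock it was 1928 to 2134 in axr2 against 2408 to 2913 in wild type. Of 2 root-hair markers 1, EXPA18, was called higher in axr2 than in wild type with 24-eBL (0.80, adjusted p = 0.017), where 14.6% of all tested probe sets were. The summed signal of both root-hair markers there was 158 to 278 in axr2 against 128 to 138 in wild type. Among 4 leaf and cotyledon markers the stomatal genes SPCH, MUTE and FMA were dim on all 12 arrays, and YAB3, the only one tested, was not called (-0.13 between axr2 and wild type with 24-eBL), with sums of 486 to 612 in axr2 and 524 to 539 in wild type. Against mock, 24-eBL changed EXPA18 by -2.02 in wild type, -2.98 in msg2 and -1.55 in axr2, all called. EXPA7, dim on 5 of 12 arrays, changed by -2.09, -2.40 and -1.40, the last not called (adjusted p = 0.12). LEA4-5 changed by -1.22, -1.39 and -1.16, all called. OLEO3 changed by 0.41, 0.27 and -0.26, none of them called. YAB3 was called in none of the 10 comparisons. The part of these markers in the differences of the photosystem and chlorophyll genes was not tested.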

How the data were processed

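The authors deposited log2 signals of 12 ATH1 arrays, which the submitters' design text says were normalised with MAS 5.0 and which names GeneSpring 11.0. On the linear scale the 2% trimmed mean of every array was 500.05 to 500.06, so no further scaling was applied. The number of arrays limits the precision, and the sources used here give no scan date or other batch. Gene symbols came from the platform's probe table (13513 probe sets with 1 gene, 503 with several, 8730 with none) and were updated to TAIR10.1 by gene ID (13436) or locus (48).

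Probe sets were tested if at least 2 arrays exceeded their own 40th percentile (15025 of 22746). A mean per group was fitted in limma 3.58.1 (R 4.3.3) with an intensity trend; the fit was also run on simulated data. The 10 contrasts were the 24-eBL response per genotype and on average, each mutant against wild type per treatment, and the differences of each mutant's response from that of wild type. Called and named genes followed a rule: every member, and up to 4 called genes of each other list. The members and lists were chosen with earlier results of these data known. Sequences were not used here. Alternatives were quantile normalisation, centring, an offset of 16, raised dim values, other filters, no trend, the compared arrays alone, a replicate block and leaving out each array.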

Additional observations from a re-analysis of the deposited data

Results flagged for a closer look

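The 24-eBL response differed between axr2 and wild type, by a test of the difference itself, in LHCB4.2 (1.01, adjusted p = 0.026) and in PSAN (1.06, adjusted p = 0.036). In LHCB4.2 the axr2 arrays were higher with 24-eBL than in mock (12.52 and 12.91 against 11.92 and 12.45) and the wild-type arrays lower (12.19 and 12.17 against 12.70 and 12.63). In PSAN the wild-type arrays with 24-eBL were lower than in mock (9.30 and 9.16 against 9.91 and 9.93), while the axr2 arrays overlapped (10.003 and 10.255 with 24-eBL, 9.48 and 10.04 in mock). Both calls were lost without axr2_mock replicate 1, the lower of the 2 axr2 mock arrays in both genes, where the differences were 0.75 and 0.78. Both were also lost without any 1 wild-type array or axr2_BR replicate 2, without the intensity trend, and with the compared arrays alone. The PSAN call was lost without either msg2 mock array as well, and the LHCB4.2 call with no filter.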

How the results depend on the processing

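The count of 8 genes higher in axr2 than in wild type with 24-eBL was 7 or 8 under each other setting and 6 to 8 when 1 array was left out. The 3 falls with 24-eBL in wild type became 0 without the intensity trend, 2 with quantile normalisation, no filter or a replicate block (PSBW lost), and 0 to 4 when 1 array was left out. In axr2 the count of 0 became 1 with centred arrays, and 0 to 1 with 1 array left out. The 1 call in the mean response, PORCINO, became 0 with raised dim values, no filter, no trend, a replicate block or without PORCINO (an alternative chosen after seeing the data), and 0 to 1 with 1 array left out; without axr2_mock replicate 1 the 1 call was CHLM, lower. The 1 call between msg2 and wild type in mock became 0 with raised dim values, no filter, no trend or a replicate block and 2 with the compared arrays alone, and 0 to 2 with 1 array left out. The 1 call between axr2 and wild type in mock became 2 with centred arrays, 0 with no filter, no trend or the compared arrays alone, and 0 to 2 with 1 array left out. The 2 differences of response between axr2 and wild type became 4 with centred arrays, 1 with no filter, 0 without the trend or with the compared arrays alone, and 0 to 4 with 1 array left out. The causes were not tested. No called difference changed sign under any of these settings. Same-numbered arrays did not deviate together (r from -0.08 to 0.071 over 15 pairs of groups), so the numbers were not taken as pairs; with the number as a block 13 of the 16 called differences were kept. The 2 arrays per group limit what could be called.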
